A study of Mus musculus with 29 samples.

Results

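The measurements described here concern 9 genes of the DNA methylation system, the DNA methyltransferase genes Dnmt1, Dnmt3a and Dnmt3b, the Dnmt1 partner Uhrf1, the methylcytosine dioxygenase genes Tet1, Tet2 and Tet3, and the methyl-CpG reader genes Mbd1 and Mbd2. They were chosen by gene symbol, and all 9 of the 9 symbols were found among the 36172 rows of the RNAseq table. Transcripts were profiled by translating ribosome affinity purification (TRAP), in which an EGFP-tagged ribosomal protein allows the ribosome-bound RNA of one cell type to be pulled from brain homogenate. Aldh1l1-NuTRAP mice carry a tamoxifen-inducible cre under the Aldh1l1 promoter (astrocytes), Cx3cr1-NuTRAP mice carry the same kind of cre under the Cx3cr1 promoter (microglia), and both are heterozygous for the floxed NuTRAP reporter, so every mouse of every group below had a cre, the NuTRAP transgene and tamoxifen. The mice were about 3 months old and of both sexes, and they had been given tamoxifen to switch the transgene on. The paper delayed collection of Cx3cr1-NuTRAP brains for weeks after tamoxifen, and collected Aldh1l1-NuTRAP brains for cytometry and imaging sooner. Line, cell type and any difference in this interval cannot be told apart in comparisons between the lines.

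The 29 libraries fell into 6 groups. For Aldh1l1-NuTRAP there were 3 positive fractions (the pulldown) and 3 negative fractions (the unbound RNA) from mice 290, 293 and 294. For Cx3cr1-NuTRAP there were 6 positive, 6 negative and 6 input fractions (homogenate before pulldown) from mice 155, 192, 194, 209, 210 and 277, and 5 whole tissue libraries (RNA extracted directly from brain tissue, without TRAP) from mice 192, 194, 209, 210 and 277. An Aldh1l1-NuTRAP input or whole tissue group was not analysed here. Total counts ran from 4260949 (whole tissue, mouse 210) to 26857866, and the next lowest library, the Aldh1l1-NuTRAP negative fraction of mouse 290, had 8782235. Cx3cr1 is also expressed by some macrophages outside the brain parenchyma, so the Cx3cr1 label is not restricted to microglia in the strict sense.

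DNA methylation in mammals is written mostly at CG dinucleotides. DNMT1 copies the pattern onto the new strand after replication, guided to hemimethylated sites by UHRF1, whereas DNMT3A and DNMT3B set new marks, and in neurons DNMT3A also methylates cytosines outside CG. The TET enzymes oxidise methylcytosine to hydroxymethylcytosine and further, a step towards removal that leaves much hydroxymethylcytosine in adult brain, and MBD proteins bind methylated CG and bring in repressor complexes such as NuRD. The same study profiled methylation and hydroxymethylation of nuclei from these lines by oxidative bisulfite sequencing, which is not analysed here, so the question taken up is which of the genes that write, oxidise and read the mark differed between the ribosome-bound RNA of astrocytes, that of microglia, and the rest of the brain.

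The promoters of Tet2, Tet3 and Dnmt3a are shown because these genes, picked after their values were seen, had the 3 largest falls of the members in the astrocyte comparison below, and CG dinucleotides, the substrate of the enzymes they encode, are in capitals. Each sequence is the sense strand of 300 bases, from 250 before to 50 after the RefSeq transcription start (GRCm38.p6, the patch level of mm10), and CG reads the same on both strands. The Tet2 window is chr3:133544341-133544640 on the minus strand and holds 57 CG, the Tet3 window is chr6:83441629-83441928 on the minus strand with 22, and the Dnmt3a window is chr12:3806730-3807029 on the plus strand with 46. The median of 32851 RefSeq promoters of this length was 7 CG, and 0.152%, 23.1% and 1.65% of them held at least as many as Tet2, Tet3 and Dnmt3a, respectively. These windows are not the only annotated starts. RefSeq lists others for Dnmt3a, of which the first is shown, and GENCODE places the 5′ ends of Tet2, Tet3 and Dnmt3a further upstream, at positions 133545139, 83459084 and 3806007. The window of Tet1, which fell less, is not printed and holds 17 CG (31.4% of promoters with at least as many).
Tet2: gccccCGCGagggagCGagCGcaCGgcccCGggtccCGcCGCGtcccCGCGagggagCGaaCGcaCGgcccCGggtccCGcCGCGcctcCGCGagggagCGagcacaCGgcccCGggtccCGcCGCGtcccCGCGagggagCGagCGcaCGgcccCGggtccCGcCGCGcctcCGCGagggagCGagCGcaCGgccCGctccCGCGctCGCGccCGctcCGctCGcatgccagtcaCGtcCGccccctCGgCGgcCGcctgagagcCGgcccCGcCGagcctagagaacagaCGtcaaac
Tet3: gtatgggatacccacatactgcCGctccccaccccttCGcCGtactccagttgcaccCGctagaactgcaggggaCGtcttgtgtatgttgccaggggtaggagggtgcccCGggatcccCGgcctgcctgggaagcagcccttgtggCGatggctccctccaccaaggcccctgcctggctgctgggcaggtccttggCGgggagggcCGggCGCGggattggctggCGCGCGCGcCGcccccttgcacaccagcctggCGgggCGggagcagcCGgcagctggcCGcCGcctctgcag
Dnmt3a: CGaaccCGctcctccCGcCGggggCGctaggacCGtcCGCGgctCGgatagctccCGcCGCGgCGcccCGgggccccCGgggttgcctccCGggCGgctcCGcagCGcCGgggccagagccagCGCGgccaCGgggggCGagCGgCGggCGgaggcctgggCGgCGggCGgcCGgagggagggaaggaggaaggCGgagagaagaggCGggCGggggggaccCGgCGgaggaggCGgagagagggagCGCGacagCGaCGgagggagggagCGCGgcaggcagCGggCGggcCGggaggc

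In the mm10 coordinates of the table the genes lie at chr9:20907206-20959888 (Dnmt1), chr17:56303337-56323486 (Uhrf1), chr12:3806980-3914443 (Dnmt3a), chr2:153649449-153687730 (Dnmt3b), chr10:62804570-62880014 (Tet1), chr3:133463677-133544390 (Tet2) and chr6:83362374-83441678 (Tet3), with Mbd1 and Mbd2 both on chromosome 18. GENCODE places the transcript 5430434F05Rik within Tet3 and Gm48353 within Tet1 on the same strand, so those reads cannot be told apart from the gene's own. Antisense transcripts overlap Dnmt3a (Dnmt3aos) and Dnmt3b (Dnmt3bos), but the libraries were strand-specific and were counted directionally.

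The fractions were first set against markers of brain cell types. In the Aldh1l1-NuTRAP positive fraction 7 of 7 astrocyte markers rose over the negative fraction, while 8 of 8 microglial and 7 of 7 neuronal markers fell, and no listed marker gene was at 0 in any library. Summed neuronal markers were 1507 to 2047 CPM (counts per 1000000 of the library's gene counts) in the positive and 6622 to 7920 CPM in the negative fraction, and oligodendrocyte markers 1109 to 1320 against 5527 to 6778 CPM. In the Cx3cr1-NuTRAP positive fraction 8 of 8 microglial markers rose over the negative fraction, to sums of 2372 to 5838 CPM from 263 to 305 CPM. There, however, 0 of 7 neuronal markers changed by edgeR's quasi-likelihood test (3 at an unadjusted p under 0.05, and 2 called by DESeq2, 1 in each direction), and their sums of 5186 to 7917 CPM overlapped those of the negative fraction (6865 to 7806 CPM), so that fraction held microglial RNA together with neuronal RNA at a level overlapping that of the unbound RNA. Of the other lists 5 of 6 oligodendrocyte markers (sums of 1225 to 3340 against 4487 to 4970 CPM) and 5 of 7 astrocyte markers (2184 to 3279 against 2742 to 3747 CPM) fell there, and 2 of 5 endothelial markers rose (83.9 to 173 against 89.0 to 105 CPM). Fewer cells of a type and less RNA per cell cannot be told apart in any of these bulk libraries. Nor, between positive and negative fractions, can the cell type be told apart from how far a transcript was bound to ribosomes.

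All 9 genes gave counts in each of the 29 libraries, but at very unequal levels. Per kilobase of merged exons, Mbd2 was the highest of the 9 in each of the 6 groups, and Dnmt3b and Uhrf1 were the lowest pair. In the Aldh1l1-NuTRAP positive fraction Mbd2 stood at 30.9 ± 1.41 CPM per kilobase (SD, n = 3), ahead of Dnmt1 at 3.98 ± 1.14, Dnmt3a at 3.74 ± 1.41 and Mbd1 at 3.73 ± 0.859, 3 levels that lay within their spread. The TET genes followed, with Tet3 at 1.32 ± 0.277, Tet2 at 0.615 ± 0.224 and Tet1 at 0.530 ± 0.0692 CPM per kilobase, the last 2 within their spread. In the Cx3cr1-NuTRAP positive fraction Mbd2 stood at 13.8 ± 0.91 CPM per kilobase (SD, n = 6), followed by Dnmt1 at 10.7 ± 1.08, Dnmt3a at 6.52 ± 1.68 and Mbd1 at 4.46 ± 0.718. Tet3 was at 2.93 ± 0.648, Tet2 at 1.86 ± 0.764 and Tet1 at 0.643 ± 0.08 CPM per kilobase there.

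**Figure D1:**
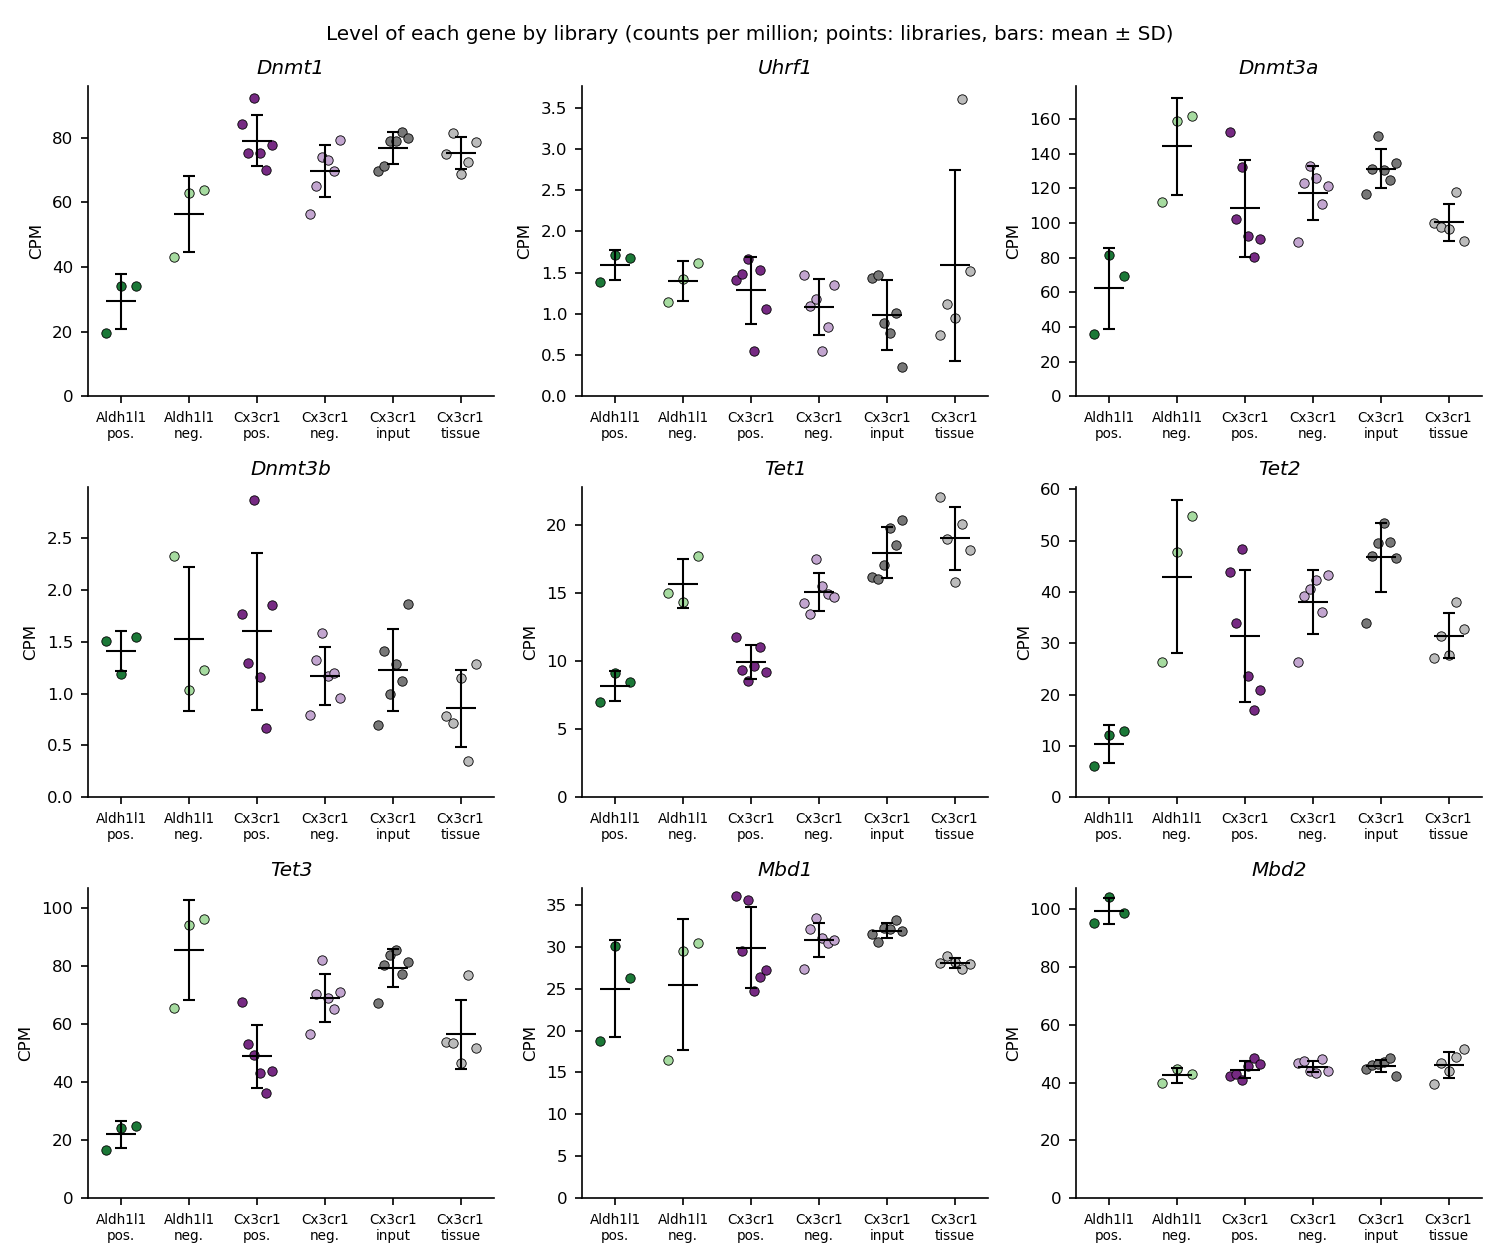
Level of each of the 9 genes in every library, in counts per 1000000 (CPM, vertical axis, each panel on its own scale from 0), by group (horizontal axis; pos., positive fraction; neg., negative fraction; tissue, whole tissue). Points are libraries and bars the mean ± SD; in the Aldh1l1-NuTRAP positive fraction Mbd2 stands above every other library (95 to 104 CPM), Tet2 and Tet3 below every other library (6.02 to 12.9 and 16.7 to 25 CPM), and Dnmt3b and Uhrf1 stay at or below 3.6 CPM throughout.

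Dnmt1, the maintenance methyltransferase, was lowest in the astrocyte fraction. It stood at 19.6, 34.2 and 34.2 CPM in the positive fractions of mice 290, 293 and 294, against 43.0, 62.8 and 63.8 CPM in their negative fractions. In Cx3cr1-NuTRAP mice it ranged from 69.9 to 92.3 CPM in positive (median 76.5), 56.3 to 79.3 in negative (71.4), 69.8 to 81.9 in input (78.9) and 68.9 to 81.6 in whole tissue (75.0). The Aldh1l1-NuTRAP positive libraries thus lay below all other libraries, while the other 5 groups overlapped their neighbours in the order of means. The share of all genes with such a separation in CPM was not counted, here or for the members below.

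Uhrf1, which brings DNMT1 to newly replicated DNA, was near the limit of detection. Its level ran from 0.354 to 1.71 CPM in 28 libraries, and the highest value, 3.6 CPM, came from the shallow whole tissue library of mouse 210, where it rested on 15.3 estimated counts. All 6 groups overlapped.

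Dnmt3a, the de novo methyltransferase most used in the adult brain, stood at 36.1, 81.3 and 69.4 CPM in the Aldh1l1-NuTRAP positive fractions of mice 290, 293 and 294 and at 112, 159 and 162 CPM in the matching negative fractions. In Cx3cr1-NuTRAP it ranged from 80.3 to 152 CPM in positive (median 97.5), 89.1 to 133 in negative (122), 117 to 150 in input (131) and 89.5 to 118 in whole tissue (98.0). The astrocyte fraction overlapped the Cx3cr1-NuTRAP positive fraction through mouse 293 alone, and lay below the other 4 groups.

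Dnmt3b, the other de novo methyltransferase, ranged from 0.352 to 2.87 CPM over the 29 libraries, with 1.5 to 52.5 estimated counts behind a value. Its groups overlapped throughout.

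Tet1 had the lowest mean level per kilobase of the dioxygenases in every group and was low in both positive fractions. It stood at 7.01, 9.10 and 8.44 CPM in the Aldh1l1-NuTRAP positive fractions of mice 290, 293 and 294 and 15.0, 14.3 and 17.8 CPM in their negative fractions. The 6 Cx3cr1-NuTRAP positive fractions ranged from 8.53 to 11.8 CPM (median 9.49), against 13.4 to 17.5 in negative (14.8), 16 to 20.4 in input (17.8) and 15.9 to 22.1 in whole tissue (19.0). The 9 positive libraries of both lines lay below the other 20, and the 2 positive groups overlapped each other.

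Tet2 stood at 6.02, 12.2 and 12.9 CPM in the Aldh1l1-NuTRAP positive fractions of mice 290, 293 and 294, and 26.3, 47.8 and 54.9 CPM in the negative fractions. The Cx3cr1-NuTRAP positive fractions had the largest coefficient of variation of the 6 groups (41.1%), though not the largest SD (12.9 CPM, against 14.9 CPM in the Aldh1l1-NuTRAP negative fractions), at 44.0, 34.1, 48.5, 23.7, 17.1 and 21.0 CPM in mice 155, 192, 194, 209, 210 and 277, whereas negative fractions ranged from 26.4 to 43.3 (median 39.9), inputs from 34.0 to 53.5 (48.3) and whole tissue from 27.2 to 38.1 CPM (31.4). The 3 astrocyte libraries lay below all others, and neighbours among the other 5 groups overlapped.

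Tet3, the most abundant dioxygenase here, had a similar order. Its level was 16.7, 24.3 and 25 CPM in the Aldh1l1-NuTRAP positive fractions of mice 290, 293 and 294 and 65.5, 94.1 and 96.2 CPM in the negative fractions. It ranged from 36.2 to 67.5 CPM in the Cx3cr1-NuTRAP positive (median 46.6), 56.4 to 82.1 in negative (69.6), 67.1 to 85.6 in input (80.8) and 46.5 to 77.0 in whole tissue (53.4). The astrocyte libraries were again below all 26 others.

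The summed CPM of Tet1, Tet2 and Tet3 was 40.5 ± 9.4 in the Aldh1l1-NuTRAP positive fraction (SD, n = 3), while the unbound RNA of these mice had 144 ± 32.8. In Cx3cr1-NuTRAP it was 90.1 ± 22.4 in positive, 122 ± 14.5 in negative, 144 ± 14.1 in input and 107 ± 16.7 in whole tissue. Tet3 made up most of the sum in 28 of the 29 libraries, and group means of its share ran from 52.5% to 59.5%. Tet1 held 20.6% ± 2.75 of the sum in the astrocyte fraction and 11.3% ± 2.53 in the matching negative fraction. Its share in Cx3cr1-NuTRAP whole tissue, 18.0% ± 2.33 (14.9% to 21.4%), overlapped that of the astrocyte fraction (18.2% to 23.6%). The paper reports less hydroxymethylation at CG in Cx3cr1-NuTRAP than in Aldh1l1-NuTRAP positive nuclei, so the TET sums of the positive fractions had the opposite order. The relation of TET message to the mark was not tested.

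Mbd1, a reader that binds methylated CG and also has zinc fingers of the CXXC type, differed little between groups. It stood at 18.7, 30.0 and 26.2 CPM in the Aldh1l1-NuTRAP positive fractions and 16.5, 29.5 and 30.4 CPM in the negative fractions of mice 290, 293 and 294, so the same mouse was low in both. All Cx3cr1-NuTRAP libraries lay between 24.8 and 36.0 CPM, and all neighbouring groups overlapped.

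Mbd2, the methyl-CpG reader of the NuRD repressor complex, stood apart by its high level in the astrocyte fraction. It stood at 95, 104 and 98.6 CPM in the positive fractions of mice 290, 293 and 294 and 39.7, 44.7 and 43.1 CPM in the negative fractions. All 23 Cx3cr1-NuTRAP libraries lay between 39.6 and 51.5 CPM. No other library came near the 3 astrocyte libraries, and the other 5 groups all overlapped.

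Comparisons were tested with edgeR's quasi-likelihood test on genes whose count exceeded 20 in each library of 1 or more of the compared groups, with Benjamini-Hochberg adjusted p-values and a threshold of 0.05. Of the 9 genes, 7 passed this filter in each of the 9 comparisons, and Dnmt3b and Uhrf1 passed in none. With no filter, neither was called in any comparison, and their lowest adjusted p was 0.115 (Dnmt3b, Cx3cr1-NuTRAP positive against whole tissue). Where leaving out a mouse let either pass the filter, it was not called. Fold changes are relative to trimmed-mean scaling (TMM), which limits the weight of a few very abundant genes. Scaling by library totals alone lowered the median of all genes from 0.04 to −0.31 in Aldh1l1-NuTRAP positive against negative, from −0.08 to −0.39 between the 2 positive fractions and from −0.11 to −0.38 in the difference between lines, on the log2 scale, so raw CPM ratios are lower there than the tested fold changes.

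Astrocyte ribosome-bound RNA held less message for the TET enzymes and Dnmt3a, and more for Mbd2, than the unbound RNA of the same brains. Tet2 fell by 1.70 on the log2 scale (SE 0.35, adjusted p = 0.00576), which is 3.25-fold, and Tet3 fell by 1.61 (SE 0.22, adjusted p = 0.000856). Tet1 fell by 0.59 (SE 0.19, adjusted p = 0.0323) and Dnmt3a by 0.87 (SE 0.30, adjusted p = 0.0422). Mbd2 rose by 1.57 (SE 0.14, adjusted p = 0.000131), which is 2.97-fold. Lower calls numbered 4 of the 7 genes tested, where 24.8% of the 13319 genes tested were called lower, and the single higher call stood beside 26.8% of all genes called higher.

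Dnmt1 had a log2 fold change of −0.60 (SE 0.25, adjusted p = 0.0806) in this comparison and was not called, but with mouse as a block the value was −0.61 with an adjusted p of 0.000688, and without mouse 290 it was −0.58 with an adjusted p of 0.000515. It was also called by DESeq2 (−0.63, adjusted p = 0.0423). Mbd1 had 0.32 (SE 0.27, adjusted p = 0.358), which passed narrowly with the block (0.33, adjusted p = 0.0495) and had the opposite sign, −0.03, under scaling by totals. With the block all 7 genes tested were therefore called, where 4927 genes were higher and 4503 lower, against 3569 and 3299 without it. The Tet1 and Dnmt3a calls were lost without either of the more deeply sequenced mice, with adjusted p of 0.124 and 0.0810 without mouse 293 and 0.269 and 0.163 without mouse 294, and the Tet1 call also with no filter (adjusted p = 0.0773). Under scaling by totals the split of all calls moved to 2438 higher and 4812 lower.

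Within each mouse the CPM ratio of positive to negative was nearly constant for Tet3, at 0.255, 0.258 and 0.260 in mice 290, 293 and 294. The ratio was 0.229, 0.255 and 0.235 for Tet2, and 2.29 to 2.39 for Mbd2. Dnmt3a was less even, at 0.322, 0.511 and 0.429. Summed neuronal markers fell alongside, from 6622, 7581 and 7920 CPM in the negative to 1507, 1979 and 2047 CPM in the positive fractions of the same mice. Oligodendrocyte markers fell in 5 of 6 genes (median −2.63) and microglial markers in 8 of 8 (median −2.35), while 7 of 7 astrocyte markers rose. The part of RNA of these other cell types in the lower TET and Dnmt3a levels was not tested. Mouse 290 gave the lowest absolute levels of all 7 tested genes among the positive fractions, together with the lowest astrocyte marker sum (11228 CPM, against 19921 and 18061 CPM), and its part in these results was seen only by leaving it out, which kept Tet2, Tet3, Tet1, Dnmt3a and Mbd2 on their side of the threshold.

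**Figure D2:**
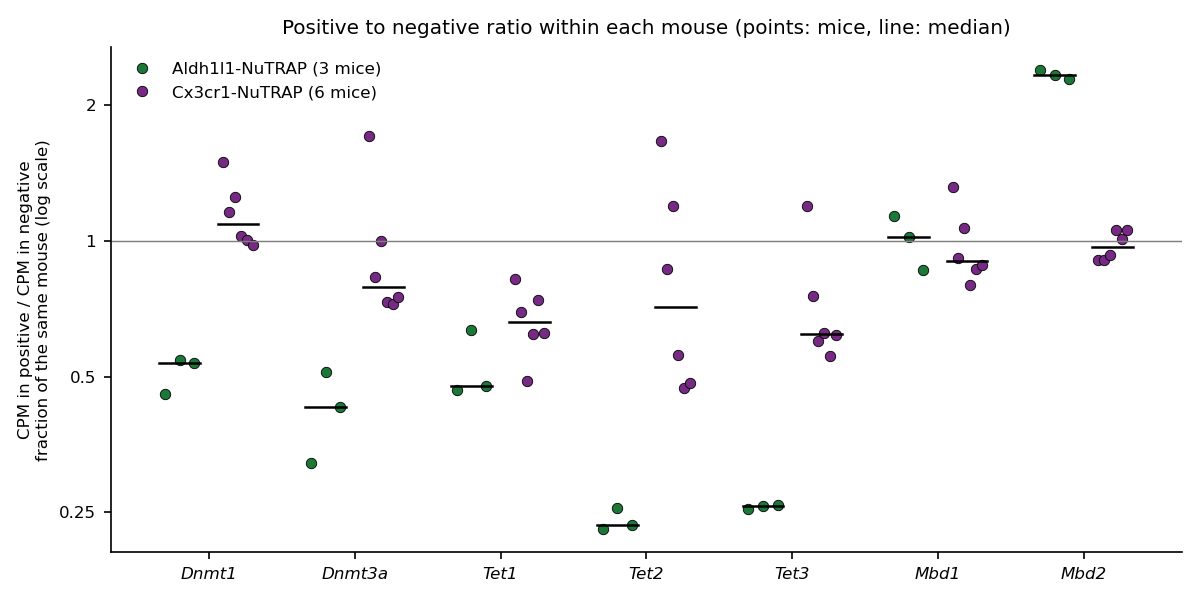
Ratio of CPM in the positive fraction to CPM in the negative fraction of the same mouse (vertical axis, log scale) for the 7 genes tested (horizontal axis), with 1 point per mouse and the median as a line, green for Aldh1l1-NuTRAP and purple for Cx3cr1-NuTRAP. The 3 Aldh1l1-NuTRAP mice cluster near 0.25 for Tet2 and Tet3 and above 2 for Mbd2, whereas the 6 Cx3cr1-NuTRAP mice spread from 0.472 to 1.67 for Tet2 and lie close to 1 for Mbd2.

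The microglial fraction was compared with 3 references that share the same 6 positive libraries. Tet1 was lower than in each of them. It fell by 0.84 on the log2 scale against input (SE 0.11, adjusted p = 2.15e-05), by 0.58 against the negative fraction (SE 0.10, adjusted p = 0.00112) and by 0.91 against whole tissue (SE 0.13, adjusted p = 7.48e-05), and the ratio was below 1 in every mouse, namely 6 of 6, 6 of 6 and 5 of 5. Tet3 fell by 0.68 against input (SE 0.13, adjusted p = 0.00075) and by 0.47 against the negative fraction (SE 0.14, adjusted p = 0.0245), in 5 of 6 mice each, and had −0.17 against whole tissue (SE 0.17, adjusted p = 0.407), with a ratio below 1 in 5 of 5 mice (0.470 to 0.985). The Tet3 call against the negative fraction was lost without mouse 192, 194, 209, 210 or 277 in turn, with adjusted p from 0.0535 to 0.0887. Against input 5 of 6 oligodendrocyte and 5 of 7 astrocyte markers fell as well, with oligodendrocyte sums of 1225 to 3340 CPM in the positive fraction and 4242 to 4912 CPM in input, while 1 of 7 neuronal markers fell and 3 of 5 endothelial markers rose. Against whole tissue 6 of 6 oligodendrocyte, 7 of 7 astrocyte and 3 of 5 endothelial markers fell, and 3 of 7 neuronal markers rose. The part of these cell types in the lower Tet1 and Tet3 levels was not tested.

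The other 5 genes tested were not called in any of the 3 comparisons. Against input, Tet2 had −0.55 (95% interval −1.08 to −0.03, adjusted p = 0.0734), Dnmt3a −0.25 (−0.57 to 0.06), Dnmt1 0.06 (−0.11 to 0.23), Mbd2 −0.03 (−0.16 to 0.10) and Mbd1 −0.08 (−0.29 to 0.14). Without mouse 155 Tet2 (−0.76, adjusted p = 0.0248) and Dnmt3a (−0.42, adjusted p = 0.0135) were called lower, and without mouse 194 Tet2 was (−0.68, adjusted p = 0.0480). Against the negative fraction Dnmt1 had 0.21 (0.01 to 0.42, adjusted p = 0.112) and Tet2 −0.24 (−0.75 to 0.26, adjusted p = 0.490). The intervals for Mbd2 were the narrowest and lay within 0.2 on the log2 scale on either side of 0 in all 3 comparisons. The positive fraction held neuronal RNA at levels overlapping the unbound RNA, so these values describe the fraction and not microglia alone.

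Lower calls thus numbered 2 of 7 against input and 2 of 7 against the negative fraction, with 25.6% and 11.6% of all genes called lower, and 1 of 7 against whole tissue, with 24.3%. Higher calls by edgeR numbered 0 of 7 in each, and 0 by DESeq2, with Dnmt1 against the negative fraction the single gene higher at an unadjusted p under 0.05, where 23.3%, 12.8% and 27.5% of all genes were called higher.

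Tet2 and Dnmt3a varied between mice within the microglial fraction more than in any other Cx3cr1-NuTRAP group, with coefficients of variation of 41.1% and 25.7%, against 14.3% and 8.51% in input. Tet2 was highest in mice 194 (48.5 CPM), 155 (44.0) and 192 (34.1) and lowest in mice 277 (21.0), 209 (23.7) and 210 (17.1). Dnmt3a split the same mice, at 132, 152 and 102 CPM in the first 3 and 91.0, 92.5 and 80.3 CPM in the others. This split of the mice was drawn from the Tet2 values after they were seen. How many genes of any kind separate along it was not counted, so no separation is read as a trait of these members. Tet2 and Dnmt3a were not the only members to split this way. Tet3 (49.3 to 67.5 against 36.2 to 43.9 CPM) and Mbd1 (29.5 to 36.0 against 24.8 to 27.2 CPM) were also higher in the first 3 mice with no overlap, and Mbd2 was lower in them (40.8 to 42.8 against 45.8 to 48.5 CPM), whereas Dnmt1 and Tet1 overlapped. Summed neuronal markers in the same libraries were 5186, 5496 and 6019 CPM in mice 194, 155 and 192 and 7102, 7917 and 7379 CPM in mice 277, 209 and 210. Microglial markers summed to 5838, 3311 and 3752 CPM in the first 3 mice and 3236, 2372 and 2859 CPM in the others, and endothelial markers to 105, 83.9 and 102 against 164, 169 and 173 CPM. Astrocyte markers summed to 2184, 2670 and 2546 CPM against 3244, 3255 and 3279 CPM, again with no overlap. Oligodendrocyte sums overlapped, with mouse 194 apart at 1225 CPM and the other 5 between 2713 and 3340 CPM. The part of these other cell types in the spread of these members was not tested, and the labels give no batch for these mice.

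**Figure D3:**
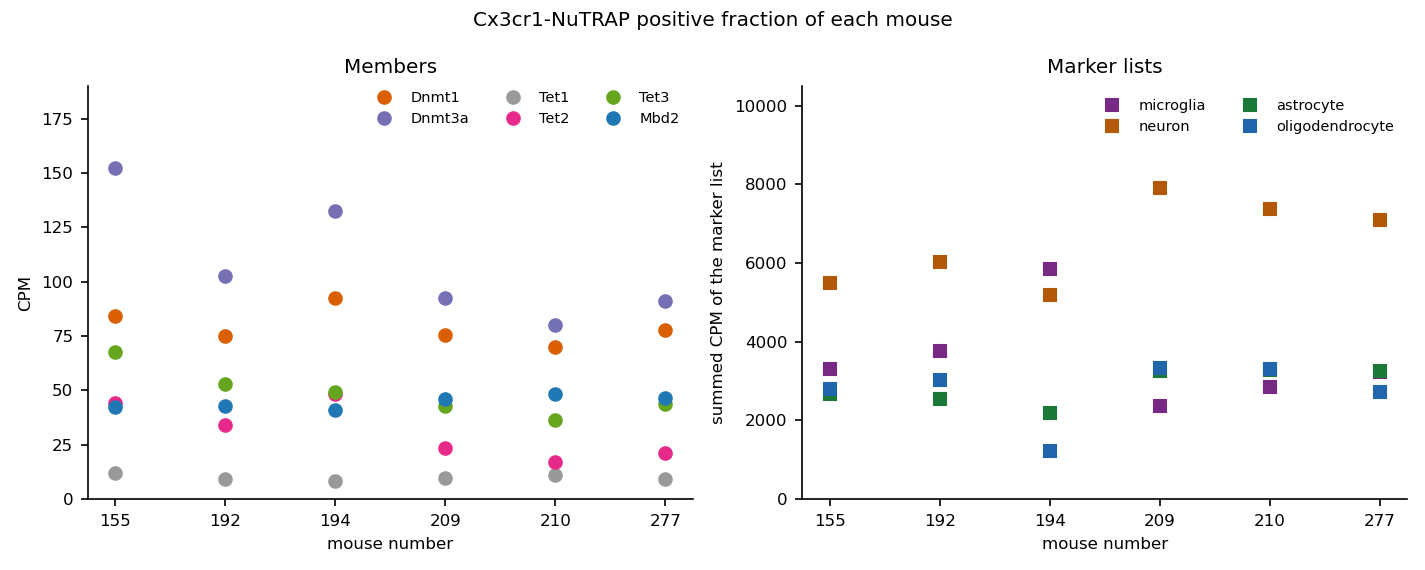
The 6 Cx3cr1-NuTRAP positive fractions by mouse number (horizontal axis), with the CPM of 6 members on the left and the summed CPM of 4 marker lists on the right, each point being 1 library. Tet2, Tet3 and Dnmt3a are higher in mice 155, 192 and 194 than in mice 209, 210 and 277, neuronal markers are lower in the former (5186 to 6019 CPM) than in the latter (7102 to 7917 CPM), and Mbd2 is lower in the former (40.8 to 42.8 CPM) than in the latter (45.8 to 48.5 CPM).

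Astrocyte and microglial fractions were next compared directly. Mbd2 was 2.77-fold higher in the Aldh1l1-NuTRAP positive fraction (log2 fold change 1.47, SE 0.09, adjusted p = 2.49e-07), whereas Dnmt1 fell by 1.12 (SE 0.18, adjusted p = 0.000314), Tet2 by 1.29 (SE 0.39, adjusted p = 0.0128) and Tet3 by 0.85 (SE 0.22, adjusted p = 0.00568). The Tet2 call was lost without mouse 290 (−1.05, adjusted p = 0.0618). Dnmt3a had −0.50 (95% interval −1.11 to 0.11, adjusted p = 0.133), Mbd1 0.05 (−0.37 to 0.47) and Tet1 0.03 (−0.33 to 0.40), and scaling by totals turned the last 2 values to −0.25 and −0.27 and made Dnmt3a a lower call (−0.80, adjusted p = 0.0207). In the same comparison 7 of 7 neuronal markers (median −1.44) and 5 of 6 oligodendrocyte markers (median −1.67) were lower, and their part in the result was not tested. Lower calls were 3 of 7 beside 33.1% of all 13676 genes, and higher calls 1 of 7 beside 30.6%. Under totals the split of all calls moved from 4188 higher and 4530 lower to 2880 and 6304.

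The positive to negative ratios of the 2 lines were also tested against each other. Mbd2 differed by 1.53 on the log2 scale (SE 0.11, adjusted p = 1.49e-09), being higher in the positive fraction of Aldh1l1-NuTRAP mice and level in Cx3cr1-NuTRAP mice (−0.01, 95% interval −0.14 to 0.12). Tet2 differed by −1.51 (SE 0.45, adjusted p = 0.00880), Tet3 by −1.19 (SE 0.26, adjusted p = 0.000818), Dnmt1 by −0.86 (SE 0.23, adjusted p = 0.00388) and Dnmt3a by −0.84 (SE 0.32, adjusted p = 0.0359), each lower in Aldh1l1-NuTRAP. The Dnmt3a difference was not called with no filter (adjusted p = 0.0689) or without mouse 290, 294, 155, 192 or 194 in turn, with adjusted p from 0.0545 to 0.0938. Tet1 differed by −0.06 (95% interval −0.45 to 0.34, adjusted p = 0.804), and Mbd1 differed by 0.28 (−0.26 to 0.82). Neuronal markers differed the same way in 7 of 7 genes (median −1.54) and oligodendrocyte markers in 5 of 6 (median −2.04), and their part was again not tested. Lower calls were 4 of 7 beside 29.9% of all 13983 genes, and the higher call, 1 of 7, stood beside 25.5%. Under totals the split over all genes moved from 3572 higher and 4179 lower to 2604 and 5712. This difference and the direct comparison share the positive libraries of both lines.

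**Figure D4:**
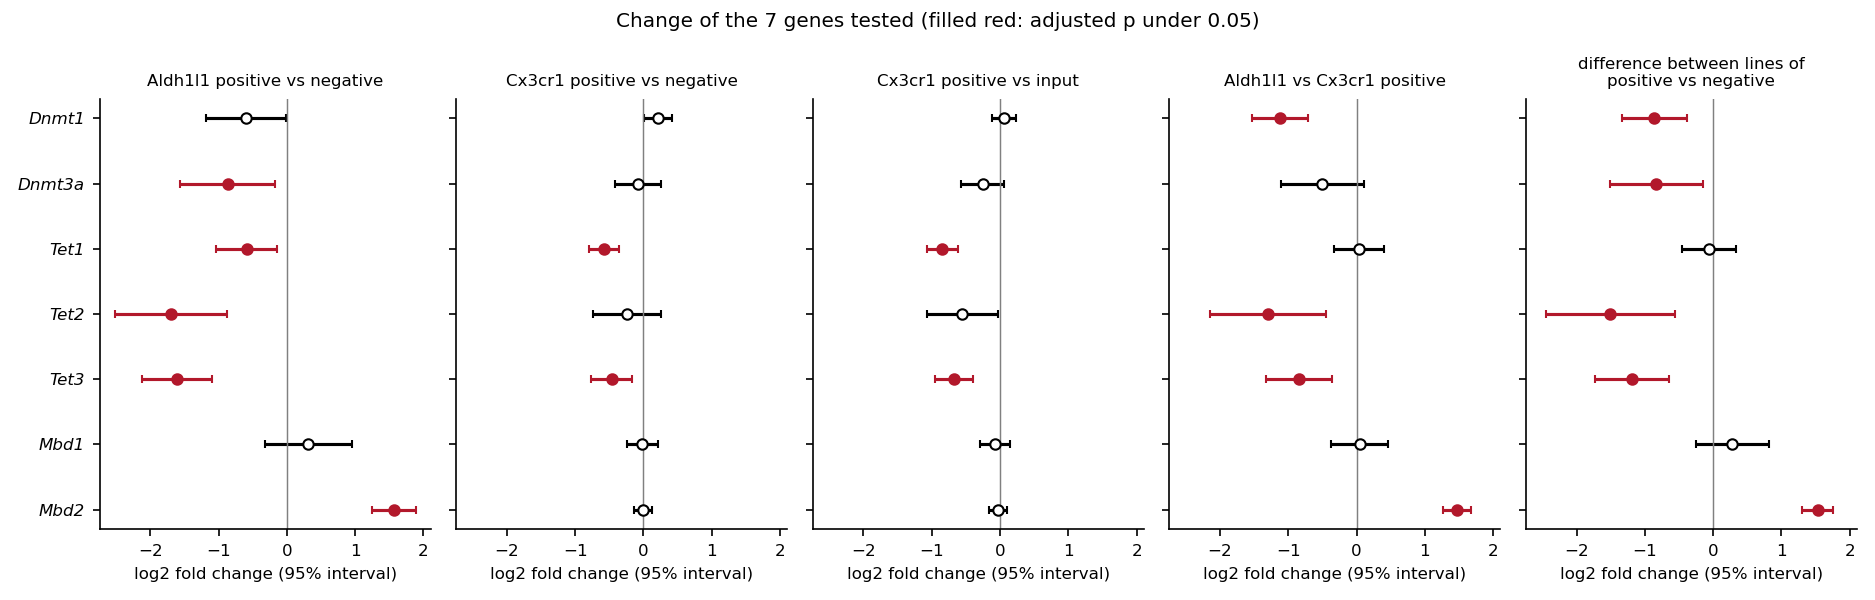
Log2 fold change (horizontal axis) with its 95% interval for the 7 genes tested in 5 comparisons, from edgeR's quasi-likelihood test; red filled points have an adjusted p under 0.05 over all genes tested. Mbd2 stands at 1.57, 1.47 and 1.53 in the 3 comparisons that involve the Aldh1l1-NuTRAP positive fraction and near 0 in the other 2, and Tet1 is below 0 against the negative fraction in both lines (−0.59 and −0.58).

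The reference fractions were compared with each other as well. Between the negative fractions of the 2 lines 0 of the 7 genes were called by edgeR, and 0 by DESeq2, with 2 at an unadjusted p under 0.05, Tet3 (0.34) and Dnmt3a (0.33). Few genes of any kind were called there, 0.125% higher and 0.125% lower. Between Cx3cr1-NuTRAP negative and input 0 of 7 were called by edgeR, with 3 at an unadjusted p under 0.05, and 1, Tet1, by DESeq2, where 1.41% of all genes were higher and 4.7% lower. With mouse as a block 5 were called lower in the negative fraction, Tet2 (−0.30), Tet1 (−0.25), Tet3 (−0.20), Dnmt3a (−0.16) and Dnmt1 (−0.14), along with 2431 genes higher and 2684 lower of any kind. Without mouse 155 and with no block, Tet1, Tet2 and Tet3 were called, and 1774 genes of any kind were higher and 2041 lower, whereas leaving out any other mouse left at most 3 calls in all.

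Input, the cleared homogenate, was set against whole tissue, with 5 mice in both groups. Tet2 rose by 0.58 (SE 0.11, adjusted p = 0.0017), Tet3 by 0.50 (SE 0.11, adjusted p = 0.00304), Dnmt3a by 0.38 (SE 0.08, adjusted p = 0.00213) and Mbd1 by 0.17 (SE 0.06, adjusted p = 0.0352) in input, each in 5 of the 5 mice that gave both. The Mbd1 call did not hold with mouse as a block (0.18, adjusted p = 0.104), with no filter, or without mouse 192, 194, 209, 210 or 277 in turn, and in 1 fit over all groups Tet3 alone was called. Higher calls were thus 4 of 7 beside 15.7% of all genes, and lower calls 0 of 7 by edgeR and by DESeq2, with 0 at an unadjusted p under 0.05, beside 14.6%. Oligodendrocyte markers summed to 4242 to 4912 CPM in input and 5879 to 8017 CPM in whole tissue, and neuronal markers to 7193 to 7529 and 5760 to 7076 CPM. Endothelial markers were lower in input in 5 of 5 genes (median −1.33, sums of 88.3 to 105 against 145 to 263 CPM) and astrocyte markers in 3 of 7 (3505 to 4012 against 4028 to 4474 CPM), and the part of these differences in the result was not tested.

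The wider set of genes that supply, remove and read DNA methylation was examined through a list of 57 genes that were not members, of which 51 to 53 were tested in a comparison. In Aldh1l1-NuTRAP positive against negative, 14 of 51 were higher and 10 lower, with a median log2 fold change of 0.05 beside 0.04 for all genes, and with 26.8% and 24.8% of all genes called in these directions. With mouse as a block 19 were higher and 17 lower, where 4927 and 4503 of the 13319 genes tested were. Among genes that supply methyl groups or write the mark 2 of 8 rose and 2 fell (3 and 2 with mouse as a block), among genes of oxidation and repair 7 of 18 rose and 4 fell (9 and 5), and in the NuRD complex 3 of 11 rose and 2 fell (4 and 2). Among 14 genes listed as other readers 2 rose and 2 fell, but 3 rose and 8 fell with the block. The median of this list was −0.40 beside 0.04 for all genes. The list also holds Cxxc and Kdm2 genes and further MBD-family genes, and was not limited to proteins that bind methylated CG. Its counts therefore do not describe readers of methylated CG as a class. The 3 largest rises were in Idh2, a mitochondrial enzyme that makes the alpha-ketoglutarate used by TET enzymes (2.74, SE 0.16, adjusted p = 4.51e-05), Apobec1, a cytidine deaminase (2.41, SE 0.25, adjusted p = 0.00026), and Ahcyl1, a relative of the enzyme that clears S-adenosylhomocysteine (2.06, SE 0.22, adjusted p = 0.000297). The falls included Zfp57, a zinc finger protein that guards imprints (−1.60, SE 0.22, adjusted p = 0.000917), and Chd3, a NuRD remodeller (−0.99, SE 0.17, adjusted p = 0.00235).

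In Cx3cr1-NuTRAP positive against negative 9 of the 53 rose and 2 fell, with a median of 0.06 beside −0.02 for all genes, of which 12.8% rose and 11.6% fell. With mouse as a block 4 were called, each of them higher, where 1278 genes of any kind were higher and 1100 lower. The deaminases Apobec3 (2.01, SE 0.21, adjusted p = 5.48e-06) and Apobec1 (1.71, SE 0.22, adjusted p = 4.27e-05) and the methionine synthase gene Mtr (0.90, SE 0.20, adjusted p = 0.00556) rose most, and the methyl-CpG reader Zbtb33, also known as Kaiso (−0.41, SE 0.13, adjusted p = 0.0308), and Idh1, the cytosolic relative of Idh2 (−0.27, SE 0.09, adjusted p = 0.0371), fell. Against input 10 of 53 rose and 8 fell (23.3% and 25.6% of all genes), and against whole tissue 14 of 52 rose and 10 fell (27.5% and 24.3%). Of the listed oxidation and repair genes 4 of 19 rose and 1 fell against the negative fraction, beside the falls of Tet1 and Tet3.

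Mbd3, the NuRD subunit that takes the place of MBD2 in part of the complexes, rose by 0.77 on the log2 scale in the astrocyte fraction against the negative fraction (SE 0.26, adjusted p = 0.0427), had 0.09 in the microglial fraction (SE 0.08, adjusted p = 0.448), and differed between the lines by 0.64 (SE 0.22, adjusted p = 0.0185). Between the positive fractions 13 of the 52 listed genes were higher and 14 lower in astrocytes, where 30.6% and 33.1% of all genes were. The highest were Gadd45g, which takes part in active demethylation and stress responses (2.30, SE 0.17, adjusted p = 8.37e-07), Idh2 (2.06, SE 0.12, adjusted p = 1.57e-07) and Ahcyl1 (2.00, SE 0.15, adjusted p = 1.02e-06). The lower genes included the reader-family gene Mbd6 (−1.32, SE 0.42, adjusted p = 0.0185) and Mtr (−1.27, SE 0.30, adjusted p = 0.00324).

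For the difference between lines, 10 of 53 listed genes were higher and 13 lower in Aldh1l1-NuTRAP, beside 25.5% and 29.9% of all genes. Ahcyl1 (2.26, SE 0.20), Idh2 (2.17, SE 0.15) and Gadd45g (1.90, SE 0.36) had the highest values and Zfp57 (−2.08, SE 0.53) and Mbd6 (−1.40, SE 0.48) were among the lower ones, with adjusted p of 0.0199 or below. Between the negative fractions 1 of 53 was called, Zfp57 (0.94, SE 0.12, adjusted p = 0.0172), beside 0.125% of all genes in either direction. In negative against input 2 of 53 were higher and 3 lower (1.41% and 4.7% of all genes), or 8 and 15 with mouse as a block, beside 2431 and 2684 genes of any kind. In input against whole tissue 12 were higher and 7 lower (15.7% and 14.6%), or 6 and 4 with the block, beside 1712 and 1340 genes of any kind. A list of 14 cell cycle genes, of interest because DNMT1 and UHRF1 act at replication, summed to 106 to 122 CPM in the astrocyte and 142 to 166 CPM in the microglial fraction, with 124 to 138 CPM in the Cx3cr1-NuTRAP negative fraction. Against the negative fraction, 3 of 11 of them rose and 1 fell in the astrocyte fraction (4 and 3 with mouse as a block), beside 26.8% and 24.8% of all genes. In the microglial fraction 3 of 12 rose (2 with the block), beside 12.8% of all genes. Against input 6 of 12 rose and 1 fell (3 higher with the block), beside 23.3% and 25.6% of all genes, and against whole tissue 5 of 10 rose (4 with the block), beside 27.5%. With the block, 2625 genes of any kind rose against input and 2930 against whole tissue. Between the positive fractions 2 of 11 were higher and 5 lower in astrocytes, beside 30.6% and 33.1%, and for the difference between lines 2 of 12 were higher and 5 lower, beside 25.5% and 29.9%.

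**Figure D5:**
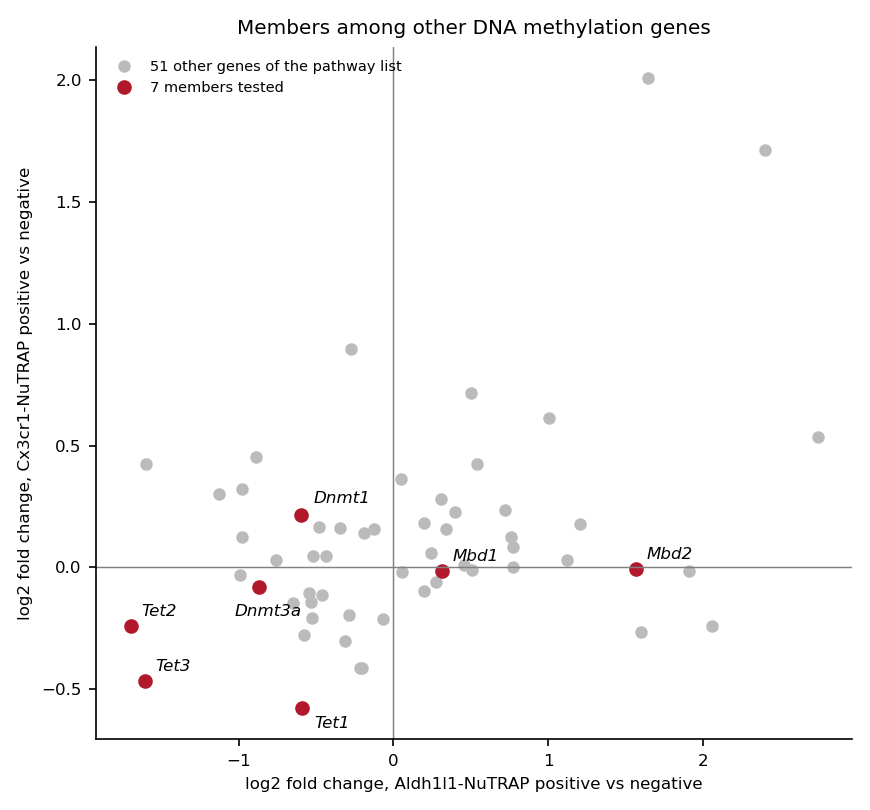
Log2 fold change of positive against negative fraction in Aldh1l1-NuTRAP (horizontal axis) and Cx3cr1-NuTRAP mice (vertical axis), with 1 point per gene, red for the 7 members tested and grey for other listed DNA methylation genes tested in both. The Tet genes sit at the lower left, Mbd2 lies on the right at 1.57 with a value near 0 on the vertical axis, and Apobec1 and Apobec3 are the grey points above 1.5 on the vertical axis.

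Levels across the 29 libraries followed those of other genes closely for some members. The libraries came from 9 mice and shared one pulldown protocol, so these Pearson correlations of log2 CPM over 14109 genes describe the set and are not independent evidence. Mbd2 was most like Nim1 (r = 0.978) and Fkbp9 (r = 0.973), Tet2 most like Mll2 (r = 0.978) and Cramp1l (r = 0.974), and Dnmt1 most like Dlg2 (r = 0.968) and Etl4 (r = 0.966). Dnmt3a was nearest to Fnbp1l (r = 0.957) and Wdr13 (r = 0.953), Tet3 to 9930013L23Rik (r = 0.956) and Cttnbp2 (r = 0.950), Tet1 to BC030336 (r = 0.936) and St6galnac3 (r = 0.923), and Mbd1 to Zfp62 (r = 0.915) and Papola (r = 0.909). For the sparse genes the best values were lower, 0.718 for Dnmt3b with Atad3a and with Eif2d, and 0.584 and 0.583 for Uhrf1 with Lca5l and Nek3, which at such counts is no finding. Among the members themselves Tet2 and Tet3 had the highest correlation (r = 0.944), and Dnmt1 and Mbd2 the most negative (r = −0.816).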

How the data were processed

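TRAP RNA of Aldh1l1-NuTRAP and Cx3cr1-NuTRAP brains was sequenced as poly-A, strand-specific libraries. Per the labels and the study's methods, the authors aligned reads to mm10 and quantified RefSeq genes in Strand NGS, and deposited estimated counts per gene (raw columns), of which 82.4% of nonzero values were not whole (tolerance 1e-06), together with DESeq-normalized log2 values. The deposited log2 columns were not used. The table held 36172 gene rows, 14057 of them at 0 in all 29 libraries, and no column was left without a sample.

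Estimated counts were scaled to counts per 1000000 (CPM) of each library's total over genes (4260949 to 26857866), and for comparisons between genes divided by merged exon length in GENCODE vM21. For tests, estimated counts were rounded to whole numbers. edgeR 4.0.16 (R 4.3.3) fitted a robust quasi-likelihood model with TMM factors to the groups compared, on genes whose count exceeded 20 in each library of 1 or more groups. Tests were two-sided with Benjamini-Hochberg adjustment over all genes tested and a threshold of 0.05, and SE and 95% intervals were derived from the fold change and its F statistic. The difference between lines was an interaction term. The scripts were tested on simulated data. Libraries of 1 mouse share its number in the labels, and samples were grouped by these labels. The correlation of their deviations from group means exceeded 0.1 for 3 of 3 mice in Aldh1l1-NuTRAP positive and negative (0.484 to 0.692), 3 of 6 in Cx3cr1-NuTRAP positive and input, 3 of 6 in positive and negative, 5 of 6 in negative and input, and 0 of 5 in positive or input with whole tissue. Fits with mouse as a block were therefore run beside the main fits, which had none.

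Alternatives were median-of-ratios scaling, scaling by totals, no filter, DESeq2 1.42.0, 1 fit over all groups, a fold change over 1.25, the block, each mouse left out in turn and, chosen after seeing the data, the whole tissue library of mouse 210 left out. Genes were named by rule: all 9 members, up to 3 called genes per direction of a list of 57 related genes in the comparisons described in detail, Mbd3, and the 2 genes most correlated with each member. The members, lists and markers were chosen with earlier results of these data known. Some listed genes that the rule names are not reported here. Promoter sequences came from RefSeq (GRCm38.p6).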

Additional observations from a re-analysis of the deposited data

Results flagged for a closer look

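The positive to negative ratio of 5 genes differed between the lines by the interaction test of edgeR, on the log2 scale and as Aldh1l1-NuTRAP minus Cx3cr1-NuTRAP. The difference was 1.53 for Mbd2, −1.51 for Tet2, −1.19 for Tet3, −0.86 for Dnmt1 and −0.84 for Dnmt3a, and their tests stand in the report.

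A single library stood far from the rest of its group for 3 of the 36 sets of values from groups of 5 or 6 libraries, and chance gives about 1 in 20 such sets. Tet2 in the input of mouse 155 was 34.0 CPM, against 46.6 to 53.5 CPM in the other 5 inputs. Tet3 in the whole tissue of mouse 210 was 77.0 CPM, against 46.5 to 53.9 CPM in the other 4. Uhrf1 in the same library was 3.6 CPM, against 0.747 to 1.51 CPM, and that library had the lowest total count.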

How the results depend on the processing

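The number of the 9 genes called was within 1.5 times the main number in 58 of 61 fits under other settings, and the exceptions were 1 (DESeq2) and 5 (replicate block) against 0 for Cx3cr1-NuTRAP negative and input, and 1 (all groups in one fit) against 4 for input and whole tissue. With a mouse left out, the number ran from 3 to 6 for Aldh1l1-NuTRAP positive and negative, 2 to 4 for Cx3cr1-NuTRAP positive and input, 1 to 2 for positive and negative, and 0 to 3 for negative and input. For the members, the block changed no other call than those given in the report. No gene that was called in the reported fit changed sign under the alternatives run for it. Of 40 single values, 7 changed sign, none of them called in the reported fit, although Mbd1 in Aldh1l1-NuTRAP was called with the block (0.33). Under scaling by totals these were Mbd1 in Aldh1l1-NuTRAP (−0.033), and Mbd1 (−0.25) and Tet1 (−0.27) between the positive fractions. In the fit over all groups they were Mbd2 against input (0.0084) and negative (0.015), Mbd1 against negative (0.0096) and the Tet1 difference between lines (0.012). With a mouse left out Mbd2 ran from −0.060 to 0.024 against input and −0.030 to 0.035 against negative, Mbd1 from −0.11 to 0.038 against negative, Tet1 from −0.048 to 0.15 and Mbd1 from −0.11 to 0.20 between the positive fractions, and the Tet1 difference from −0.21 to 0.037. The causes were not tested. Estimated counts of at most 52.5 per library limit what Dnmt3b and Uhrf1 can show.

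No fit with a block was made between the lines, whose mice differ, for the direct comparisons of positive or of negative fractions. Calls over all genes moved by over 1.5 times for Cx3cr1-NuTRAP negative and input, with 194 higher and 646 lower against 766 and 1290 (DESeq2), 2431 and 2684 (block), 53 and 228 (no filter), 0 and 59 (all groups) and 70 and 392 (with the study's fold threshold), for the negative fractions of both lines, with 17 and 17 against 256 and 261 (DESeq2), 6 and 8 (no filter) and 8 and 20 (library totals), and for input and whole tissue, with 2130 and 1993 against 1167 and 1283 (all groups) and 1453 and 1326 (with the study's fold threshold). With a mouse left out, Aldh1l1-NuTRAP positive and negative moved from 3569 and 3299 to 1977 and 1685 (without 293) and 1987 and 1600 (without 294). Cx3cr1-NuTRAP positive and negative moved from 1759 and 1593 to 1177 and 570 (192), 1151 and 868 (194) and 1372 and 866 (277), positive and whole tissue from 3705 and 3279 to 2322 and 2696 (192), and input and whole tissue to between 1322 and 1409 higher and 1204 and 1265 lower (192, 194 or 209). Between the negative fractions calls ran from 0 to 61 higher and 0 to 72 lower.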
